A study of Mus musculus with 24 samples.

Results

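The 84 genes described here encode proteins of the cytosolic ribosome, the particle that translates nearly all messenger RNA of a cell. They were chosen by name alone, as every array gene called Rpl or Rps with a digit after it, together with Rplp0, Rplp1, Rplp2 and Rpsa, and without the S6 kinases and named pseudogenes. The rule found 85 names among 36413 on the array. Of these, 84 had a probe well above background on at least 6 of 24 arrays, among 28237 genes that met this filter, and Rpl10l, a retrogene known from testis, did not. The 84 were 33 genes of the small subunit and 51 of the large one by name, and all 84 were well above background on all 24 arrays. By name the set also took in Rps19bp1, which is a binding partner of Rps19 and not a ribosomal protein. It also took in Rps4y2, whose probe is assigned to a RefSeq record of the non-coding class.

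The measurements are from the left ventricle of male mice, 6 in each of 4 groups, with 1 array per mouse. CON mice were controls, and mG4H mice carried an inducible transgene for the glucose transporter GLUT4 that is expressed in cardiomyocytes. VEH mice received sodium citrate buffer, and STZ mice received streptozotocin, a toxin of the insulin-producing cells of the pancreas, given daily for 5 days at 55 mg per kg body weight. The transgene was induced 2 weeks after STZ, and the hearts were taken after 2 more weeks. The inducing agent, whether CON mice also received it, and the strain were not given in the sources used here. Some mice had siblings in another group, but which ones was not stated. The p-values below therefore measure the spread among these mice as if all were unrelated.

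The small subunit of the ribosome reads the messenger RNA, and the large subunit joins the amino acids. Most messenger RNAs for ribosomal proteins begin with a tract of pyrimidines, the terminal oligopyrimidine motif, through which the mTORC1 pathway controls how actively they are translated, so that their abundance and their translation can move apart. A few of these proteins have a paralog that can take their place in certain tissues. The best known in heart and skeletal muscle is Rpl3l, the muscle paralog of Rpl3.

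The 75th percentile of the processed signal lay between 370 and 583 per array, and between 58.5% and 76.3% of gene spots stood well above background, with no saturated spot. Each group mean rests on up to 6 arrays, and the estimate of spread of a gene is shared by all 4 groups. Arrays came from 4 slides. Slides 1 to 3 each held all 4 groups, and slide 4, scanned on another day, held 2 arrays, CON VEH replicate 3 and mG4H VEH replicate 3. Blood glucose was 117 to 164 in CON VEH and 600 to 601 in CON STZ, and 131 to 152 in mG4H VEH and 500 to 601 in mG4H STZ, in a unit the labels do not state. Body weight was 27.9 to 36.4 in CON VEH and 21.8 to 27.8 in CON STZ. The Slc2a4 probe, for the mouse GLUT4 gene, did not separate the genotypes (log2 difference under VEH -0.20 ± 0.16 SE, adjusted p = 1). Whether it reads the transgene is not given in the sources used here, so this probe gives no check of the genotype labels on which every mG4H comparison rests. Other genes did differ between the genotypes. Of 28237 genes, 23 passed an adjusted p of 0.05 in limma's test under VEH and 3 under STZ. Whether these differences come from the transgene was not tested. All 12 cardiomyocyte markers were well above background on all 24 arrays. Bulk tissue was measured, so fewer cells of a type and less RNA per cell cannot be told apart.

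Sequences at the annotated starts of these genes are shown first, because the pyrimidine tract is the feature the genes are best known to share. The promoter table of RefSeq on GRCm38.p6 held 64 of the members, with 76 annotated starts. Each line gives 15 bases before the start and 15 from the start base on, read along the transcribed strand, with the longest run of C and T in capitals. The first 5 are the general ribosomal proteins with the longest runs, 9 to 13 letters, among those whose starts were read. Runs were shorter, and lines are not printed, for Rpl39 (8 letters), Rpl22, Rpl36a, Rplp0 and Rpsa (5 each), Rpl5 (4) and Rpl11 (3). The other lines are Rps28 and 5 paralogs described below, which were not chosen by their runs.

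Rps6: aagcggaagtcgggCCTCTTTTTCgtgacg
Rpl38: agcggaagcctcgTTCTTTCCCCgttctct
Rplp2: tgcgtcagcgTCTTCCTTTCgccgccggac
Rps27: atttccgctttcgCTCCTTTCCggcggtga
Rpl13a: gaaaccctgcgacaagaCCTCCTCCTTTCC
Rps28: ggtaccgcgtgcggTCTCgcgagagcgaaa
Rpl3l: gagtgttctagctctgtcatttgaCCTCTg
Rpl22l1: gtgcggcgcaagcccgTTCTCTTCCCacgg
Rps27l: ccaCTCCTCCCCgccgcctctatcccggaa
Rpl36al: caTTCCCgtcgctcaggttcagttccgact
Rpl7l1: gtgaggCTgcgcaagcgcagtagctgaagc

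The windows lie at chr4:86857353-86857382 for Rps6, chr11:114668565-114668594 for Rpl38, chr7:141447636-141447665 for Rplp2, chr3:90213634-90213663 for Rps27 and chr7:45128731-45128760 for Rpl13a. They lie at chr17:33824548-33824577 for Rps28, chr17:24727811-24727840 for Rpl3l, chr3:28805493-28805522 for Rpl22l1, chr9:66946071-66946100 for Rps27l, chr12:69184053-69184082 for Rpl36al and chr17:46782642-46782671 for Rpl7l1. Rps6, Rps27, Rpl13a, Rps28, Rpl36al and Rpl7l1 are on the minus strand. A C at the annotated start followed by at least 4 letters that are C or T was found at 13 of the 76 member starts (17.1%) and at 2.51% of all 32851 starts in the table. None of the 10 starts of the paralogs and Rps19bp1 had it. A run of at least 8 such letters between 10 bases before and 20 after the start was found at 31.6% of member starts and 11.2% of all starts. The letters CGGAAG, the core bound by Ets factors such as GABPA, were present on either strand of the promoter, 250 bases before the start to 50 after it, at 61.8% of member starts and 16.9% of all. AAGATGGC, the core of the YY1 motif, was found in the same way at 8 of the 76 member starts and at 2.75% of all starts. These are matches of letters. The annotated starts can lie several bases from the start used in heart.

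STZ diabetes was compared with buffer in CON mice to ask whether the messenger RNA of the ribosome changes in the diabetic heart. Of the 84 genes, 0 passed an adjusted p of 0.05 in limma's test, where 3.96% of all 28237 genes tested did (469 higher and 648 lower). At an unadjusted p under 0.05 there were 2, Rps28 higher and Rpl3l lower, against 14.3% of all genes. In no gene did the 6 CON STZ mice lie wholly above or below the 6 CON VEH mice, whereas 4.59% of all genes had such groups. The median log2 fold change was 0.026, beside 0.027 over all genes, with quartiles of -0.003 and 0.067, and it was -0.026 with scaling to the array median. It was 0.040 in the small subunit and 0.016 in the large one. A log2 fold change above 0 was measured for 60 of 84 genes and for 55.2% of all genes.

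The data bounded the change of most of these genes closely. The median standard error was 0.093 for the 84 genes and 0.191 for all genes. The 95% interval of the fold change lay within 1.5-fold in either direction for 80 of the 84, and for 48.5% of all genes. Rpl39l, Rps29 and Rpl3l were among those whose intervals reached further. Such precision was not particular to these genes. The 75 mitochondrial ribosomal protein genes had a median standard error of 0.092, and 70 of their intervals lay within 1.5-fold. Under quantile normalization 1 gene passed the threshold, Rps28 (adjusted p = 0.0337), and with array weights 1 other did, Rpl3l (adjusted p = 0.0339).

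**Figure D1:**
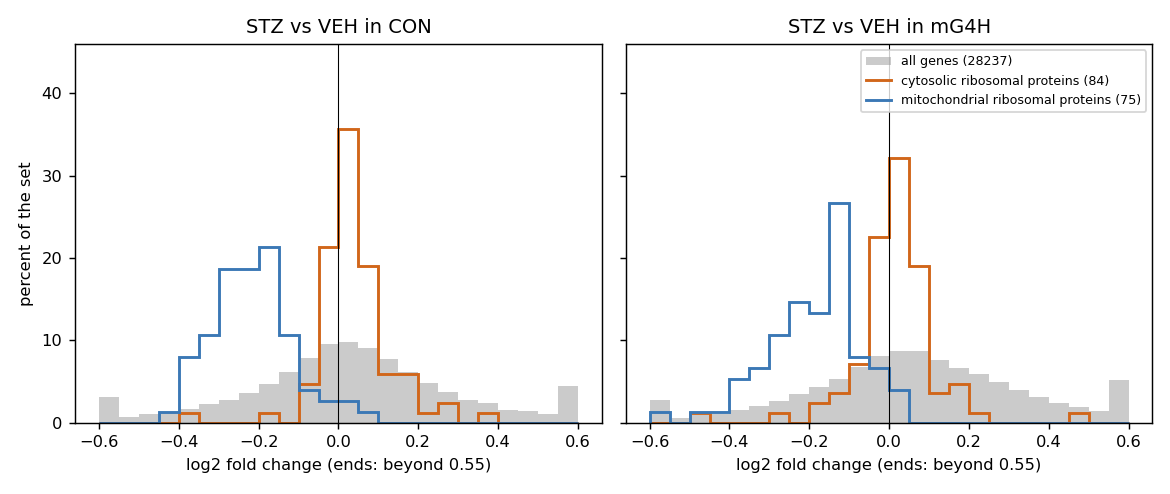
Distribution of log2 fold changes for STZ against VEH in CON (left) and in mG4H (right), as the percent of each set in steps of 0.05, for the 84 cytosolic ribosomal protein genes, 75 mitochondrial ribosomal protein genes and all 28237 genes; the end steps also hold values beyond them. The cytosolic set is narrow and has medians of 0.026 and 0.011, while the mitochondrial set has medians of -0.22 and -0.16.

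In mG4H mice STZ gave a similar picture. Of the 84 genes, 0 passed the adjusted threshold (0.266% of all genes did) and 1 had an unadjusted p under 0.05, Rps4y2, against 14% of all genes. The median log2 fold change was 0.011, beside 0.061 over all genes, and -0.097, beside -0.048, with scaling to the array median. With the 75th percentile, 52 of 84 values were above 0, against 60.5%. The 95% interval was within 1.5-fold for 80 of 84 genes and for 47.5% of all genes. Rpl39l, Rps4y2 and Rps21 were among the exceptions. Of the 75 mitochondrial ribosomal protein genes, 69 had an interval within 1.5-fold.

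The transgene was compared with the control genotype under each treatment. Under VEH, 0 of 84 genes passed (0.0815% of all genes) and Rps4y2 alone had an unadjusted p under 0.05 (2.87% of all genes), with a median log2 difference of 0.018 beside -0.008 over all genes. Under STZ, 0 passed (0.0106% of all genes), 0 had an unadjusted p under 0.05 (3.55%), and the median was 0.0003 beside 0.015. The interval lay within 1.5-fold for 79 of 84 genes under VEH (56.2% of all genes) and for 83 of 84 under STZ (54.3%), where Rpl39l was the exception. Values above 0 were measured for 47 of 84 genes under VEH (47.3% of all genes) and 43 of 84 under STZ (54.2%). The 2 groups compared overlapped for every one of the 84 genes, so that 0 stood apart in mG4H for STZ (1.67% of all genes), and 0 between genotypes under VEH (1.02%) and under STZ (0.216%). For the difference between the STZ effects of the genotypes, 0 genes passed by limma, 0 had an unadjusted p under 0.05 (1.77% of all genes), and 0% of all genes passed. The interval of that difference lay within 1.5-fold for 79 of 84 genes (38.9% of all genes), and 36 of 84 values were above 0 (55%). These comparisons share groups with the comparisons above.

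**Figure D2:**
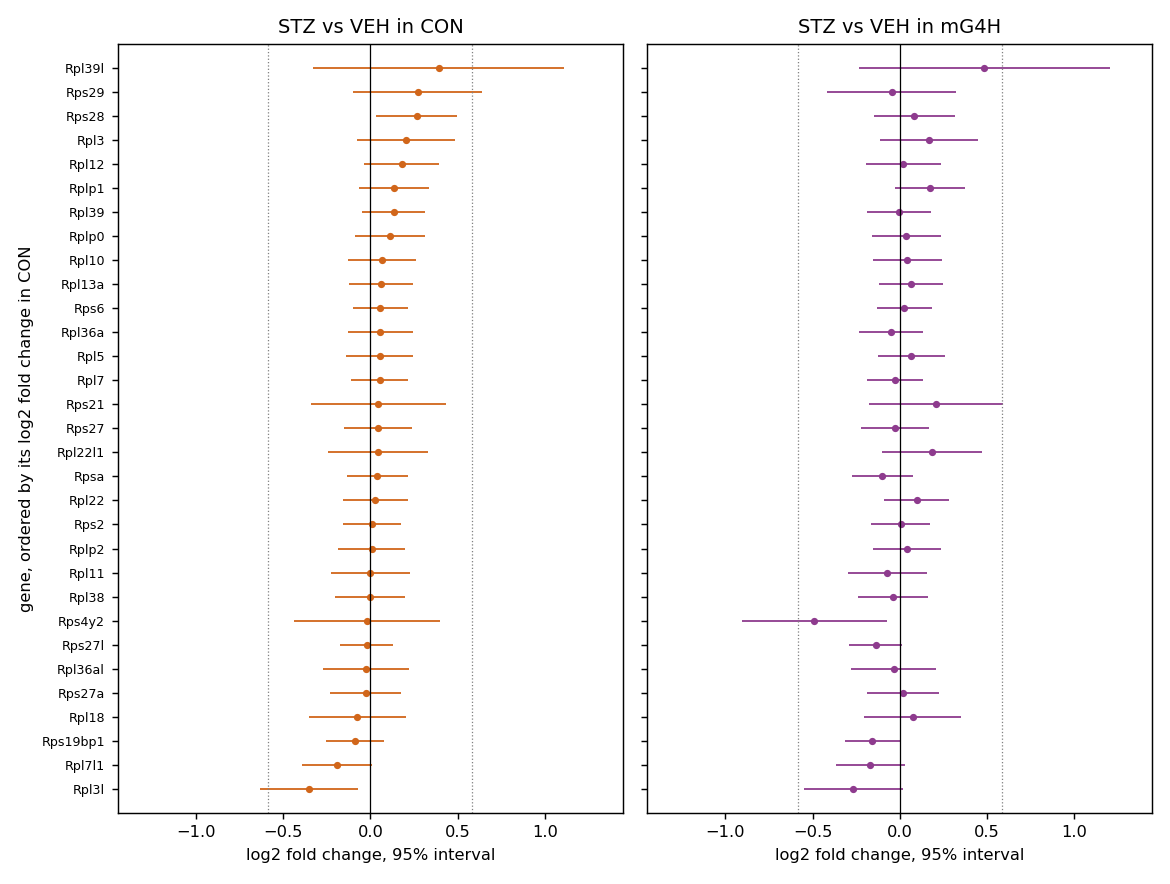
Log2 fold change (points) with 95% interval (bars) for STZ against VEH in CON (left) and in mG4H (right) of the ribosomal protein genes reported by name here, both ordered by the value in CON; dotted lines mark 1.5-fold in either direction. Most intervals lie within the dotted lines, and Rpl39l, at the top with 0.39 in CON, has the widest.

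The stalk proteins Rplp0, Rplp1 and Rplp2 recruit the elongation factors to the large subunit. Rplp1 had log2 levels, relative to the array's 75th percentile as throughout, of 7.01 to 7.24 in CON VEH (median 7.21) and 7.08 to 7.48 in CON STZ (median 7.32). They were 7.00 to 7.26 in mG4H VEH (median 7.12) and 7.15 to 7.75 in mG4H STZ (median 7.21). The groups overlapped in both genotypes, and the log2 fold changes were 0.13 ± 0.10 (SE) and 0.18 ± 0.10, with adjusted p = 0.683 and 0.443. The values in CON and mG4H were 0.11 and 0.04 for Rplp0, and 0.01 and 0.04 for Rplp2.

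Rps6, the small subunit protein that S6 kinases phosphorylate when mTORC1 is active, was among the steadiest. It ranged from 7.28 to 7.45 in CON VEH and from 7.26 to 7.64 in CON STZ, so the VEH mice lay inside the range of the STZ mice. Its log2 fold change was 0.06 ± 0.08 in CON and 0.03 ± 0.08 in mG4H. Intervals of both reached no further than 1.16-fold and 1.14-fold.

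Rpl5 and Rpl11, which bind Mdm2 outside the ribosome and so stabilise the tumour suppressor p53, differed between STZ and VEH by 0.05 and 0.0004 in CON, and by 0.07 and -0.07 in mG4H. Rpl13a, which can leave the large subunit to silence inflammatory messenger RNAs, had 0.06 in CON and 0.07 in mG4H. Rpsa, also known as the laminin receptor, had 0.04 and -0.10. Rps27a, made as a fusion with ubiquitin, had -0.03 and 0.02. Rpl10, which joins the large subunit late in its assembly, had 0.07 and 0.04. Rpl38, known for its part in translating Hox messenger RNAs, had -0.003 and -0.04. Adjusted p was 0.691 or more for each of these genes in both genotypes.

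Rpl38 shows how the choice of a probe can matter. Its 2 probes were almost equally bright, and the one not chosen gave a log2 fold change of 0.27 in CON (adjusted p = 0.599 in the fit of single probes). That probe read 6.39 in CON VEH replicate 1, where its median was 7.59.

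Paralogs were examined as pairs, since a swap of one for the other would alter the make-up of the ribosome without altering its amount. Rpl3l lies on chromosome 17 and Rpl3 on chromosome 15. Their probes are printed as deposited. Capitals mark the longest run of letters the probes share, which is 6 of 60 bases. Neither probe was compared with the transcript of the other gene, so whether each reads only its own was not tested.

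Rpl3: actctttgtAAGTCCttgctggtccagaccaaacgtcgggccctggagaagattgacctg
Rpl3l: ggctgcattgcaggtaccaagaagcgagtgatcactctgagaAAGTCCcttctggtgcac

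Per the array files, which place probes on mm9, the Rpl3 probe lies at chr15:79908489-79908772 and the Rpl3l probe at chr17:24872413-24872681. These spans are 284 and 269 bases for probes of 60 bases, so both probes were placed across a gap, as a probe over a splice junction is. Exon and untranslated region were not assigned here.

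Rpl3l had the lowest log2 fold change of the 84 genes in CON. Its levels were 4.46 to 4.86 in CON VEH (median 4.74) and 3.99 to 4.70 in CON STZ (median 4.44). In mG4H they were 4.52 to 4.94 under VEH (median 4.85) and 4.11 to 4.92 under STZ (median 4.54). In each genotype 3 of the 6 STZ mice lay below all VEH mice, and the others overlapped them. The log2 fold change was -0.35 ± 0.14 in CON, a 1.28-fold lower level (unadjusted p = 0.0168, adjusted p = 0.185), and -0.27 ± 0.14 in mG4H (adjusted p = 0.394). Within slides 1, 2 and 3 it was -0.15, -0.60 and -0.36 in CON, and -0.12, -0.16 and -0.73 in mG4H. The difference between the 2 genotypes was 0.09 ± 0.19 (adjusted p = 1).

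Rpl3, the general form, had levels of 5.82 to 6.19 in CON VEH (median 6.04) and 5.88 to 6.50 in CON STZ (median 6.24). Of the 6 STZ mice, 1 lay within the range of the VEH mice and the others above it. In mG4H, levels were 5.84 to 6.04 under VEH (median 5.98) and 5.84 to 6.87 under STZ (median 6.01), where 1 mouse at 6.87 stood above the next at 6.20. The log2 fold changes were 0.21 ± 0.14 in CON (adjusted p = 0.613) and 0.17 ± 0.14 in mG4H (adjusted p = 0.675). Within slides 1, 2 and 3 they were 0.15, 0.15 and 0.23 in CON, and -0.08, 0.07 and 0.49 in mG4H. With body weight as a covariate the value in CON was 0.08. The value in mG4H was 0.05 with array weights and with robust regression.

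Taking the difference between the log2 values of the paralogs within each array cancels only what both genes share on that array. This measure was added after the data were seen, for 7 pairs and 4 comparisons. Removing the members' array median, described below, took 28.5% off the spread of Rpl3. For Rpl3l the value was -12.1%, a larger spread, so these genes did not share that shift alike and the ratio can carry it. The log2 ratio of Rpl3l to Rpl3 was 0.56 lower under STZ in CON (change -0.56, SD 0.22 in VEH and 0.44 in STZ, n = 6 each). By an exact two-sided permutation test over 924 splits, p was 0.0216, and 0.262 after Benjamini-Hochberg adjustment over 28 tests. In mG4H the change was -0.43 (exact permutation p = 0.121, adjusted p = 0.424). The ratios there were -1.49 to -0.98 under VEH and -2.76 to -1.02 under STZ. The lowest was that of mG4H STZ replicate 3, the mouse with Rpl3 at 6.87, so the mG4H change rests in part on this array. It is on slide 3 and enters the mG4H value of that slide below. The change without it was not computed. The change was below 0 within each of slides 1 to 3, at -0.30, -0.75 and -0.59 in CON and -0.04, -0.24 and -1.22 in mG4H, with 1 or 2 mice per group and slide. The 2 groups of CON mice overlapped in this ratio.

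Of the other pairs, the log2 ratio of Rps4y2 to Rps4x changed by -0.03 under STZ in CON and by -0.52 in mG4H (exact permutation p = 0.0693, adjusted p = 0.388). That of Rpl39l to Rpl39 changed by 0.26 and 0.49, with an exact permutation p of 0.29 and 0.281. That of Rpl7l1 to Rpl7 changed by -0.24 and -0.14, with an exact permutation p of 0.0952 and 0.253. Rpl22l1, the paralog of the RNA-binding protein Rpl22, had log2 fold changes of 0.04 in CON and 0.19 in mG4H, beside 0.03 and 0.10 for Rpl22. Rps27l, which p53 induces, had -0.02 and -0.14, beside 0.04 and -0.02 for Rps27. Rpl36al had -0.03 and -0.03, beside 0.06 and -0.05 for Rpl36a. Of the 28 ratio tests, 3 had an exact permutation p under 0.05, and the smallest adjusted p was 0.262. The other 2 were the ratios of Rps27l to Rps27 (change 0.14, p = 0.0281 by the exact permutation test) and of Rps4y2 to Rps4x (change 0.44, p = 0.013 by the same exact test), each for mG4H against CON under VEH. For Rps27 and Rps4x the array places the probe used on another chromosome than the RefSeq gene, as described below.

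Rpl7l1, a relative of Rpl7 that acts mainly in ribosome assembly, was among the 3 lowest in both genotypes. Its levels were -0.31 to 0.19 in CON VEH (median 0.12) and -0.34 to 0.06 in CON STZ (median -0.13), and -0.17 to 0.15 in mG4H VEH (median 0.04) and -0.40 to -0.01 in mG4H STZ (median -0.14). The ranges overlapped in both genotypes. The log2 fold changes were -0.19 ± 0.10 (adjusted p = 0.391) and -0.17 ± 0.10 (adjusted p = 0.469), while Rpl7 had 0.05 and -0.03. Rps19bp1 came next in CON, at -0.09 ± 0.08 with 1 of 6 STZ values missing, and had -0.16 ± 0.08 in mG4H (adjusted p = 0.358).

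**Figure D3:**
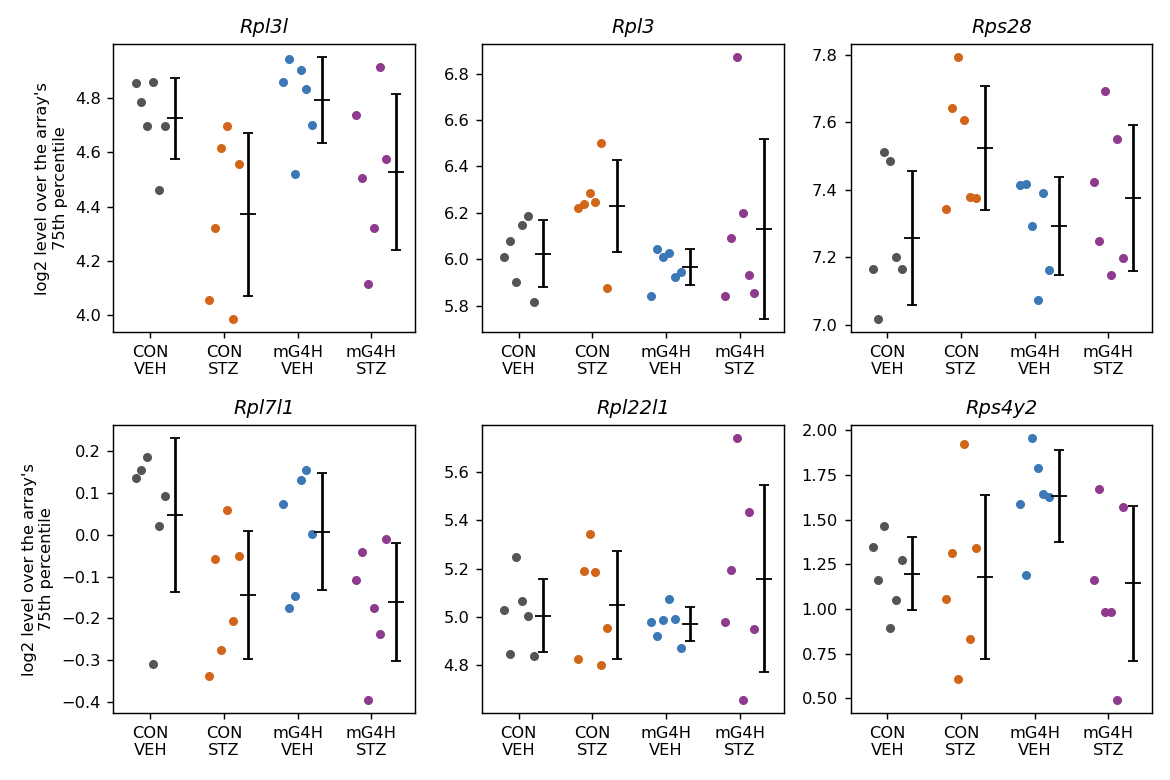
Log2 level relative to the array's 75th percentile of 6 genes, 1 point per mouse, with the group mean and SD at the right of each group (n = 6). Rpl3l and Rpl7l1 have lower means under STZ in both genotypes and Rpl3 higher ones, with overlapping ranges, and Rps4y2 has its highest mean, 1.63, in mG4H VEH.

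Rps28, a small subunit protein near the path of the messenger RNA, had levels of 7.02 to 7.51 in CON VEH (median 7.18) and 7.34 to 7.79 in CON STZ (median 7.49). The ranges overlapped, and the log2 fold change was 0.27 ± 0.11 (unadjusted p = 0.0274, adjusted p = 0.249). In mG4H levels were 7.08 to 7.42 under VEH and 7.15 to 7.69 under STZ, with a log2 fold change of 0.08 ± 0.11. Scaling to the array median gave -0.02 in mG4H, on the other side of 0.

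Rps4y2 is the array's name for a gene that RefSeq calls Rps4l, a relative of Rps4x. The gene is read by a probe assigned to a RefSeq record of the non-coding class. Its levels were 0.90 to 1.46 in CON VEH (median 1.22), 0.61 to 1.92 in CON STZ (median 1.19), 1.19 to 1.96 in mG4H VEH (median 1.63) and 0.49 to 1.67 in mG4H STZ (median 1.07). The mG4H VEH mice were the highest as a group but overlapped every other group. The log2 fold change was -0.49 ± 0.20 for STZ in mG4H (adjusted p = 0.264), -0.02 ± 0.20 for STZ in CON, and 0.43 ± 0.20 for mG4H against CON under VEH (adjusted p = 1). Rpl39l, a paralog of Rpl39 known from testis, had the highest log2 fold changes for STZ, 0.39 ± 0.35 in CON and 0.48 ± 0.35 in mG4H. It was also the most variable member, with an SD of 0.63 over 24 arrays and levels from -4.34 to -1.43, and its adjusted p was 0.802 and 0.605.

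Some of the other large values came from single low spots. Rps29 had a log2 fold change of 0.27 in CON, but CON VEH replicate 3 read 6.58 while the other 5 mice read 7.93 to 8.10, and without that array it was 0.03. Rps21 had 0.21 in mG4H, where mG4H VEH replicate 3 read 4.83 and the next mouse 6.10, and -0.02 without it. Both low spots were on slide 4, which held only these arrays and was scanned on another day. Low spots of other member probes, counted below, were on slides 1 and 2. The same spots put Rps29 at 0.30 and Rps21 at -0.23 for mG4H against CON under VEH. Beyond these, Rpl18 had -0.13 for mG4H against CON under VEH. Under STZ the lowest were Rps28 at -0.15, Rpl12 at -0.14 and Rps27 at -0.10, and the highest Rpl3l at 0.16, Rpl22l1 and Rps2 at 0.11. Adjusted p was 1 for each of these.

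**Figure D4:**
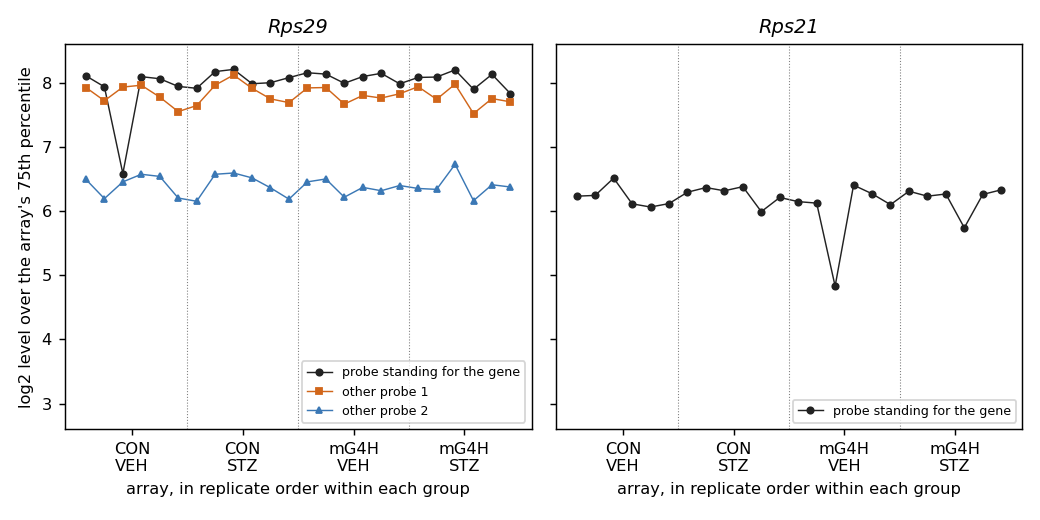
Log2 level relative to the array's 75th percentile of each probe of Rps29 and Rps21 on the 24 arrays, in replicate order within each group, with the probe that stands for the gene in black. Rps29 has an isolated low reading of 6.58, where its other probes stay near their usual level, and Rps21, which has 1 probe, has one of 4.83.

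Of 141 single-spot member probes with a mean level above 4, 9 of 3371 values (0.267%) lay more than 1 log2 unit from the probe's median, and all 9 lay below it. Over all such probes on the array the share was 0.682%.

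The 84 genes shifted together from array to array, and so in part did other genes. Each gene was set against its own mean over 24 arrays, and the median of these deviations was taken per array. The array medians were -0.164 to 0.084 in CON VEH, -0.144 to 0.199 in CON STZ, -0.088 to 0.054 in mG4H VEH and -0.138 to 0.276 in mG4H STZ, so every pair of groups overlapped. In mG4H STZ replicate 3, the highest, 79 of the 84 genes were above their mean, and in CON VEH replicate 6, the lowest, 4 were. The small and large subunit shifted alike, at 0.265 and 0.281 in the highest array and -0.164 and -0.164 in the lowest. Measured the same way, the cardiomyocyte markers were at 0.148 and -0.161 on these arrays, and all genes at 0.194 and -0.105. On some other arrays the members and all genes lay on opposite sides of 0. In mG4H STZ replicate 4 the members were at -0.138 and all genes at 0.111, and in replicate 5 at 0.091 and -0.105. Removing the array median lowered the spread within groups of 75 of the 84 genes, and of 49.3% of all genes. The members are not independent of that median. The median SD over 24 arrays was 0.143 for the members before and 0.089 after, and 0.354 for all genes before.

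The shift went with the brightness of the array. Of the 12 arrays with the lower 75th percentile, 9 had an array median above 0, and of the 12 others 4 had. The highest array had a 75th percentile of 370, the lowest of all 24, and CON STZ replicate 6, at -0.144, had 583, the highest. Since every level is relative to that percentile, the part of scaling in the shift was not tested. With each array scaled to its median ribosomal protein gene, 0 of 84 genes passed in any comparison, and Rpl3l in CON had a log2 fold change of -0.39 (adjusted p = 0.173).

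**Figure D5:**
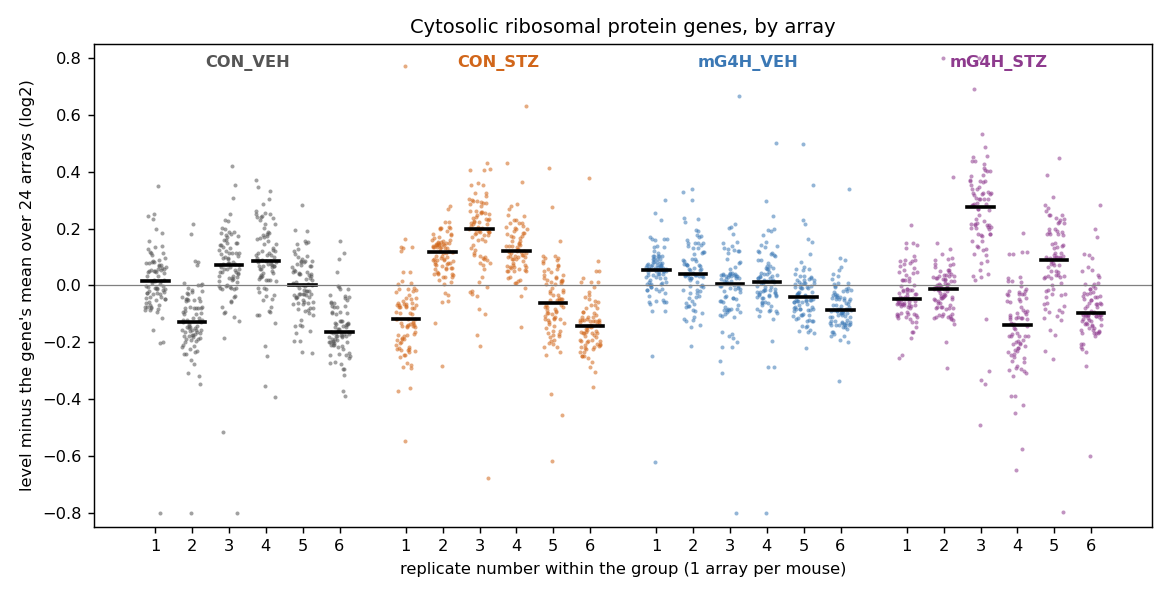
Deviation of each of the 84 genes from its own mean over 24 arrays (log2, points, drawn at the edge where beyond 0.8) on each array, with the array's median as a black bar. The medians range from -0.164 in CON VEH replicate 6 to 0.276 in mG4H STZ replicate 3, and arrays of every group lie on both sides of 0.

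The probes of a gene were compared with each other. The 84 genes had 170 probes that met the filter, and 51 genes had more than 1. For STZ in CON the median distance between a gene's lowest and highest log2 fold change was 0.075, and 7 of 51 genes had over 0.2. In mG4H the median distance was 0.061, and 8 of 51 had over 0.2. Probes of 1 gene had opposite signs in 21 of 51 genes in CON and in 26 of 51 in mG4H, and the median distance was larger than the median log2 fold change of the 84 genes in both. With each of the 170 probes tested on its own, 0 passed in any of the 5 comparisons. Ribosomal protein genes have many processed copies in the genome, and the array files place 11 member probes, of 6 genes, on another chromosome than the RefSeq gene. All 4 Rps27 probes are placed on chromosome 9 and the gene on 3, and all 3 Rps29 probes on 2 and the gene on 12. For these genes, reads of the gene and of a copy cannot be told apart. The others were Rpl13, Rpl31, Rpl36 and Rps4x, with 1 probe each. For Rps4x it is the only probe, and for Rpl31 it is the probe that stands for the gene.

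Genes around the ribosome were read from lists of its assembly, its factors and its control. In CON 2 of 44 ribosome biogenesis genes and 1 of 24 cap-dependent initiation factors passed, shares near the 3.96% of all genes. Gnl3, a nucleolar GTPase also called nucleostemin, rose in CON by 0.40 ± 0.11 (adjusted p = 0.0453), and Ubtf, a factor of ribosomal RNA transcription, fell by 0.47 (adjusted p = 0.00377). The median of the biogenesis list was 0.07. Gnl3 levels were 0.14 to 0.52 in CON VEH and 0.53 to 0.88 in CON STZ, and Ubtf levels 5.41 to 5.76 and 4.94 to 5.27, without overlap, as in 4.59% of all genes. Eif1b, a form of the start codon selection factor eIF1, fell by 0.26 in CON (adjusted p = 0.0471), and the median of the initiation factors was 0.08. Of 17 elongation factors and other genes with a pyrimidine tract, 0 passed by limma in either genotype, with medians of 0.04 and 0.03.

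In the mTORC1 and S6 kinase list, 21 of 23 genes were measured, and 2 passed in CON and 1 in mG4H, beside 3.96% and 0.266% of all genes. Ddit4l, which like Sesn3 encodes a protein known to restrain mTORC1, fell by 0.58 ± 0.10 in CON (adjusted p = 0.00258) and by 0.58 in mG4H (adjusted p = 0.0173). Its levels were -2.26 to -1.72 in CON VEH and -2.71 to -2.29 in CON STZ. They were -1.95 to -1.40 in mG4H VEH and -2.41 to -2.14 in mG4H STZ. The groups did not overlap in either genotype, as in 4.59% of all genes in CON and 1.67% in mG4H. Sesn3 fell by 0.54 in CON (adjusted p = 0.0365) and had -0.02 in mG4H. The highest values of the list, whose genes are named after their values were seen, did not pass, at 0.83 for Eif4ebp1, a translation repressor that mTORC1 inhibits, in CON (adjusted p = 0.126) and 0.88 for Ddit4, another restraint on mTORC1, in mG4H (adjusted p = 0.506). The list's medians were 0.03 and 0.04. No gene of these lists passed in the other comparisons. With scaling to the array median 0 of these genes passed, as calls over all genes in CON went from 1117 to 75. Leaving out 1 array at a time left 2 to 7 calls in CON, with 2 without replicate 2 or 3 of CON VEH or replicate 1 or 3 of CON STZ and 3 without 12 others, and 0 or 1 in mG4H, with 0 without replicate 1, 2, 4 or 6 of mG4H VEH or replicate 3 of mG4H STZ. Fau and Gnb2l1, ribosomal proteins outside the name rule, had log2 fold changes between -0.02 and 0.07 for STZ in both genotypes.

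Marker lists of the cell types in the heart were read beside these values, with 3.96% of all genes passing in CON and 0.266% in mG4H. In CON, 2 of 10 fibroblast markers rose, Postn by 1.26 and Mfap5 by 0.84, and the list had a median of 0.35. Of 11 macrophage markers, which ran from -0.36 to 0.68, Itgam rose by 0.48, and of 12 cardiomyocyte markers Ckm fell by 0.47. No endothelial, lymphocyte, erythroid, smooth muscle or adipocyte marker passed in CON, and no marker of any list in mG4H. The lymphocyte list had medians of -0.58 in CON and -1.02 in mG4H, the erythroid list -0.53 and -0.58, and the adipocyte list 0.40 and 0.05. The mean level of the fibroblast list was 3.72 to 4.19 in CON VEH and 3.38 to 4.89 in CON STZ, and that of the cardiomyocyte list 8.02 to 8.36 and 7.91 to 8.25. Their part in the values of the ribosomal protein genes was not tested.

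The mitochondrial ribosome, which translates the few messages of mitochondrial DNA, gave different counts. Of 75 Mrpl and Mrps genes, 7 fell and 0 rose in CON (3.96% of all genes passed), 47 were lower at an unadjusted p under 0.05 (14.3% of all genes in either direction), the median was -0.22, and 3 of 75 had a value above 0, against 60 of 84 for the cytosolic ribosome. In mG4H the median was -0.16, with 0 passing by limma (0.266% of all genes) and 33 lower at an unadjusted p under 0.05 (14% of all genes in either direction). The difference between the sets was not tested.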

How the data were processed

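One-colour (Cy3) Agilent arrays, 1 per mouse, were scanned and quantified with Agilent Feature Extraction 10.5.1.1 per the file headers, which place probes on mm9. The deposited values are spot intensities, and the processed signal had been background-corrected and detrended within each array by the authors' software, with no scaling between arrays. The submitters' processing notes also name limma, with no stated role. Here log2 of that intensity was taken minus the array's 75th percentile, so a log2 level is relative to the array and not to the deposited intensity of another. Outlier spots were left out, spots of a probe averaged, probes well above background on at least 6 of 24 arrays kept, and the brightest probe taken per gene. In limma 3.58.1 (R 4.3.3) 1 fit over 4 groups gave 5 comparisons, with Benjamini-Hochberg adjustment over 28237 genes and a threshold of 0.05. The fit was tested on simulated data.

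Named genes were the 3 highest and 3 lowest log2 fold changes in each comparison, members with a known role or a paralog, and up to 4 called genes per surrounding list. The members and lists were chosen with earlier results of these data known. Alternatives covered scaling, background, filter, probe rule, weights, slide, scan day, body weight and single arrays. Scaling to the ribosomal protein genes, robust regression, single probes, paralog ratios and the alternatives for the surrounding lists were added after the data were seen. RefSeq symbols (GRCm38.p6) were the same for 82 of 84 genes. Rps3a is Rps3a1 there. Same-numbered arrays of different groups had a median correlation of 0.004, beside -0.021 for other pairs, which does not settle whether the numbers pair the mice. A few genes are counted among all members but are not reported here by name.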

Additional observations from a re-analysis of the deposited data

Results flagged for a closer look

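Among 128 sets of 6 mice (each named gene, and the array median, in each group), 11 held 1 mouse far from the other 5 by Dixon's criterion. Chance meets it in about 1 of 20 independent sets. These sets share arrays, and some genes were named for extreme values in these data, so the count cannot be judged against that rate. In mG4H STZ, replicate 3 was the highest for Rpl10 at 8 (next 7.67), Rpl12 at 7.39, Rpl3 at 6.87 and Rplp1 at 7.75. It is the array with the highest ribosomal protein median. In the same group, replicate 4 was the lowest for Rpl36a at 5.03, Rpl36al at 5.38 and Rps21 at 5.74, on an array with a ribosomal protein median of -0.138. In mG4H VEH, Rpl36al was lowest in replicate 2 at 5.61 and Rps21 in replicate 3 at 4.83. In CON VEH, Rpl7l1 was lowest in replicate 4 at -0.31 and Rps29 in replicate 3 at 6.58. The other probes of Rps29 did not share its low value, and Rps21 has no other probe.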

How the results depend on the processing

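The count of ribosomal protein genes past the threshold stayed 0 in all 5 comparisons under every setting tried, except for STZ in CON, where it was 1 with quantile normalization and 1 with array weights. Their median log2 fold change ranged over the settings from -0.026 to 0.115 for STZ in CON, -0.097 to 0.026 for STZ in mG4H, -0.019 to 0.112 for mG4H against CON under VEH, -0.049 to 0.014 under STZ and -0.124 to 0.007 for the difference between the STZ effects, on both sides of 0 in each. The least settled results are the calls in the surrounding lists. For STZ in CON they were 5, and became 0 with scaling to the array median or within slide 1, 2 or 3, 1 with body weight as a covariate, 2 without the filter, without slide 4, with scan day as a term or at an adjusted p of 0.01, 3 with ribosomal protein scaling, 13 with array weights and 15 with robust regression. They ranged from 2 to 7 with 1 array left out. For STZ in mG4H the 1 call became 0 with quantile normalization, either of those scalings, only the groups compared, slide 1, 2 or 3 alone, body weight or an adjusted p of 0.01, and 6 with robust regression, and was 0 to 1 with 1 array left out. The cause was not tested. Scaling to the array median moved the median of all genes for STZ in mG4H from 0.061 to -0.048. Over all genes, calls for STZ in CON were 1117, and became 0 within slide 1, 2 or 3, 75 with that scaling, 168 with body weight, 2426 with array weights and 3166 with robust regression.

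With replicate number as a block, ribosomal protein calls stayed 0, and the surrounding lists gave 3 in CON. Of 36 same-numbered pairs, 16 correlated over 0.1 (median 0.004, from -0.597 to 0.662), and 8 of 24 arrays correlated best with their own number. The median correlation of other pairs was -0.021. Whether the numbers stand for a pairing of mice, such as siblings, cannot be told from these correlations. No estimate restricted to the groups compared exists for the difference between the STZ effects, which uses all 4. The standard error was 0.35 for Rpl39l, beside a median of 0.093 over the members.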
